A study of Rattus norvegicus with 4 samples.

Results

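The 10 enzyme genes of the glycolytic pathway were described in rat neural stem/progenitor cells (NSPCs): Hk2, Gpi, Pfkp, Aldoa, Tpi1, Gapdh, Pgk1, Pgam1, Pkm and Ldha. They were chosen by name as the enzymes of the route from glucose to lactate, without enolase, and make 10 of the 16881 gene symbols counted. All 10 had counts in the files and all 10 passed the filter that left 10516 genes for testing, a minimum of 10 counts in any 1 library. Hk2 entered through its 41 counts in a single library. Wild-type NSPCs were grown on 1 of 2 scaffold platforms, named PUCL and PUCL@CNT1 in the labels. A library per platform was made after 24 h in knockout DMEM/F12 with StemPro neural supplement, which is called maintenance medium here. The other library per platform came from cells that then spent another 1.5 d in B-27 Plus neuronal medium, called differentiation medium here, so the medium and the time on the platform differ at once. The labels do not say which animals or how many cultures the 4 libraries came from, and no group had a replicate.

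Glycolysis splits glucose into pyruvate in the cytosol, with ATP and NADH as products, and lactate dehydrogenase then returns NADH to NAD+ while it makes lactate. Its enzymes fall into a part that spends ATP (hexokinase, phosphoglucose isomerase, phosphofructokinase, aldolase and triose phosphate isomerase) and a part that yields it (from glyceraldehyde-3-phosphate dehydrogenase to pyruvate kinase). Many of the genes are known targets of the hypoxia-inducible factor HIF-1 and of MYC. Neural progenitors are known for high glycolysis and for lower use of it as they become neurons.

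Libraries held between 6035848 and 6855984 counts, with 9584 to 9842 symbols detected. The ribosomal RNA entries took 8.46% to 13.4% of counts, with both lower shares on PUCL@CNT1. Of 9 NSPC markers, 8 were counted in every library (Msi1 was at 0). CPM here stands for scaled CPM, the count relative to a library size adjusted by TMM (a trimmed mean of M values). All 6 microglial markers were at 0. The 4 counts or levels of a gene are given in 1 order throughout: PUCL and PUCL@CNT1 in maintenance medium, then PUCL and PUCL@CNT1 in differentiation medium. Ratios are log2 ratios of TMM-scaled counts of 2 libraries, with exact 95% intervals that cover counting error only, since no group had a replicate. The labels name no molecular identifiers, so these intervals could be too narrow even for counting error. Each ratio compares 2 libraries, not 2 conditions, and has no p-value. Reads of near-identical gene copies could have been split in the authors' counting. RefSeq names 81 pseudogenes for Gapdh, 30 for Ldha, 19 for Pkm, 13 for Pgam1, 9 for Aldoa, 8 for Pgk1 and 3 for Tpi1, so the levels of these enzymes are uncertain. A gene was called by size when its ratio was at least 2-fold and the nearer bound lay beyond 1.5-fold.

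After the medium switch most of the enzymes were lower on PUCL and higher on PUCL@CNT1. On PUCL the median log2 ratio of the 10 enzymes, differentiation over maintenance, was -0.42, and 7 of 10 had an interval wholly below 0, against 36.3% of all genes tested. On PUCL@CNT1 the median was 0.45, and 8 of 10 had an interval wholly above 0, against 37.7% of all genes. The median of all genes was 0 in both pairs. In differentiation medium the enzymes were higher on PUCL@CNT1 than on PUCL, with a median of 0.67 (0.47 without Hk2). All 10 platform ratios were above 0 there, but 9 (not Gpi) after scaling by total counts or RLE size factors and 8 (median 0.57) when the ribosomal RNA entries were left out of those totals, where Gpi and Pgk1 were below 0. Of the 10 intervals, 7 lay above 0 there, against 37.2% of all genes. In maintenance medium the platform median was -0.21, with 6 of 10 intervals below 0 against 34.6% of all genes and 3 above it. Without Hk2, 6 of 9 enzymes had an interval below 0 for medium on PUCL and 5 of 9 for platform in maintenance medium. The 4 pairs share libraries, so their values are not independent of one another. Intervals narrow as counts grow, and 8 of the enzymes were among 3619 genes with a mean of 300 or more counts. Of these 8, 5 had an interval below 0 for medium on PUCL (42.5% of the 3619 genes), 7 above 0 for medium on PUCL@CNT1 (41.4%) and 6 above 0 for platform in differentiation medium (43.2%).

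The promoters of Ldha, Aldoa and Tpi1 are shown because these 3, after Hk2, were the enzymes called by size in at least 1 comparison below. Each is the 250 bases before an annotated start, read 5′ to 3′ on the gene's strand from RefSeq (GRCr8 build). Capitals mark the hypoxia response core, ACGTG or GCGTG on either strand, in which a match on the opposite strand reads CACGT or CACGC. Aldoa has 3 annotated starts, and the window with a core is shown. Ldha lies at chr1:106507842-106508091 (+ strand), Aldoa at chr1:190836778-190837027 (− strand) and Tpi1 at chr4:159305089-159305338 (− strand).
Ldha: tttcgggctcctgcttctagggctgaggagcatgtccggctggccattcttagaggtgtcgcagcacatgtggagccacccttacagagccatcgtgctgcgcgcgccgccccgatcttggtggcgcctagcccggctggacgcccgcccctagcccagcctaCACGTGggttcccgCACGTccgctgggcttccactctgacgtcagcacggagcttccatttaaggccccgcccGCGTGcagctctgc
Aldoa: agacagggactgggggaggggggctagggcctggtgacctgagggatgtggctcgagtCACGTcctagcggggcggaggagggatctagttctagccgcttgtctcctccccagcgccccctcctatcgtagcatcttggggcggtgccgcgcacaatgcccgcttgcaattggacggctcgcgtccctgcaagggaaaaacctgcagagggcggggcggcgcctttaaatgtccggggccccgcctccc
Tpi1: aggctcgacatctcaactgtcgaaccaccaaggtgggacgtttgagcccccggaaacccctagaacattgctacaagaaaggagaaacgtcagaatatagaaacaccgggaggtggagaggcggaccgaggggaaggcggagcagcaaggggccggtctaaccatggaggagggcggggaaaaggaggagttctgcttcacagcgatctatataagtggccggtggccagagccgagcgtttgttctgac
The Ldha window held 4 matches, whose first bases lay 87, 86, 73 and 14 bases before the start. The matches at 87 and 86 overlap in 1 CACGTG, the E-box form bound by MYC, which holds ACGTG on both strands. Aldoa held a single match, 192 bases before its start, and Tpi1 held none. RefSeq windows were found for 9 of the 10 enzymes, and 5 of these 9 (Pfkp, Aldoa, Gapdh, Pgam1 and Ldha) held a core. By window, 5 of their 11 windows did (45.5%), against 36.7% of 33469 rat promoter windows of the same length. The E-box CACGTG was found in 1 of the 11, that of Ldha, against 5.59% of all windows. A match is a run of letters, not a measured binding site.

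**Figure D1:**
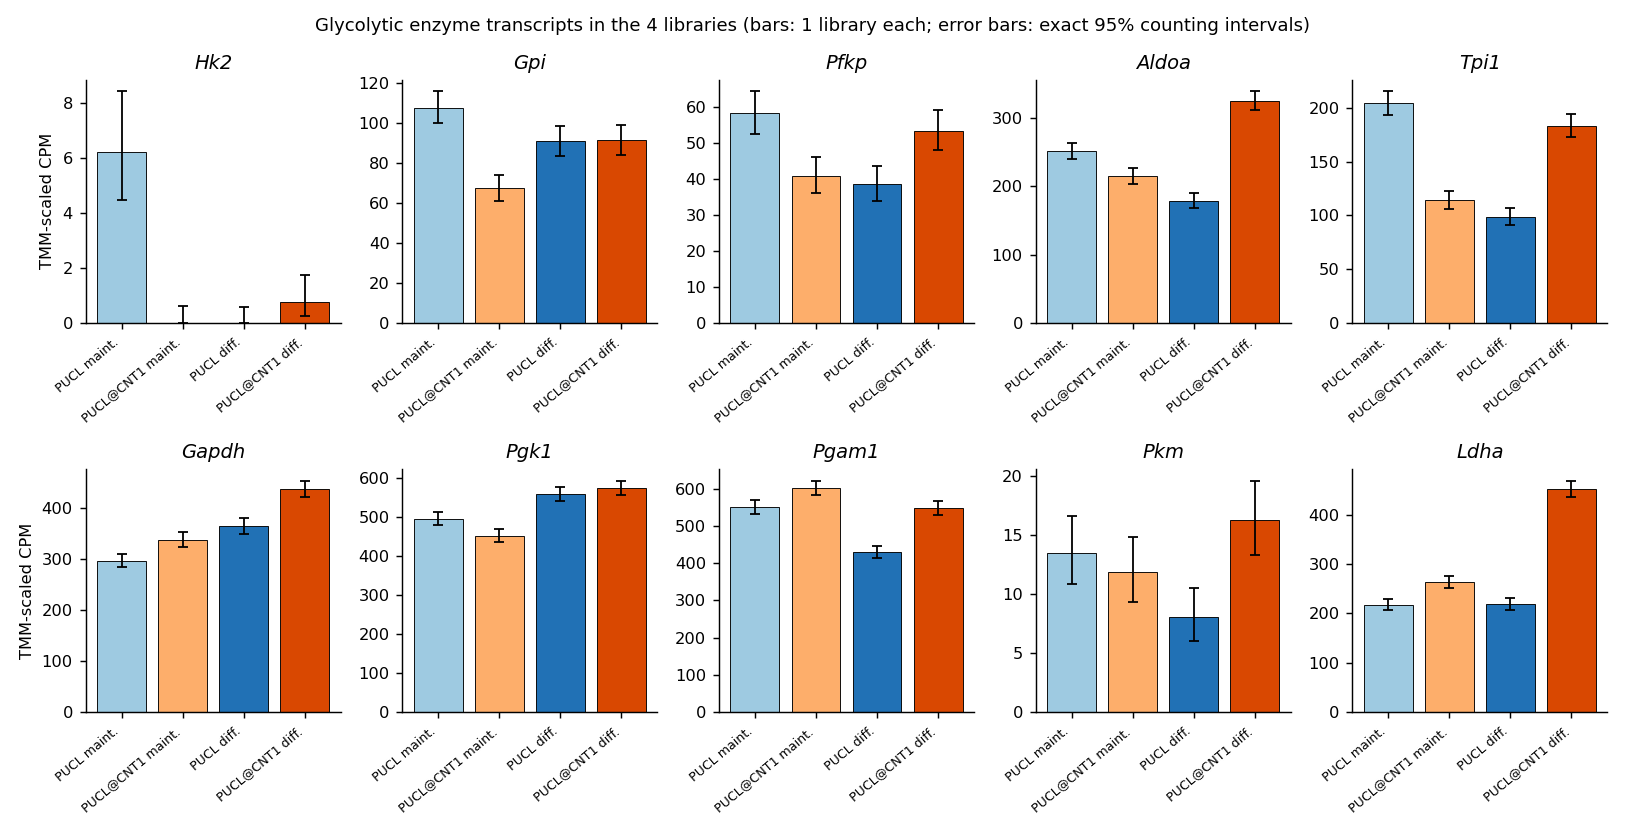
Level of each enzyme in the 4 libraries, in TMM-scaled CPM on a linear axis from 0; each bar is 1 library and error bars are exact 95% counting intervals. The library of PUCL@CNT1 in differentiation medium holds the highest bar for 5 of 10 enzymes. That of PUCL in differentiation medium holds the lowest for 5 of the 9 enzymes other than Hk2. Hk2 is at 0 both there and on PUCL@CNT1 in maintenance medium.

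Hexokinase phosphorylates glucose and holds it in the cell. Hk2, the inducible form, had 41, 0, 0 and 5 counts. It was seen in the PUCL maintenance library and at 5 counts, close to the floor of 3 counts, in 1 other. Taking 0 as 3 counts per library, Hk2 was lower on PUCL@CNT1 than on PUCL in maintenance medium by at least 12.9-fold. The medium pair on PUCL gave at least 13.4-fold lower. These bounds take the 41 counts without error, and the counting intervals ended nearer to 0, at log2 -3.33 and -3.38. Hk2 passed the filter only through the library in which it was high, so both ratios had to be below 0. In differentiation medium its 5 counts against 0 set no direction, since the interval reached down to -0.17. Hk1, the constitutive form, had 2598, 1726, 1234 and 1597 counts, so Hk2 made 1.55% of the counts of both in the PUCL maintenance library and 0.312% on PUCL@CNT1 in differentiation medium. In the remaining libraries no Hk2 count was found, where 3 counts would make shares of 0.174% and 0.243% and the exact 95% upper limits are 0.213% and 0.298%.

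Phosphoglucose isomerase turns glucose-6-phosphate into fructose-6-phosphate. Gpi had 710, 421, 587 and 607 counts. It was lowest on PUCL@CNT1 in maintenance medium, and the remaining libraries were closer together. Its platform ratio, PUCL@CNT1 over PUCL, was -0.68 (-0.85 to -0.50) in maintenance medium and 0.01 (-0.16 to 0.17) in differentiation medium. Phosphofructokinase commits sugar to glycolysis, and Pfkp is its platelet-type gene. Pfkp had 384, 255, 249 and 355 counts. Its platform ratio was -0.51 (-0.75 to -0.28) in maintenance medium and 0.47 (0.23 to 0.71) in differentiation medium, with both intervals off 0 on opposite sides.

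Aldolase splits fructose-1,6-bisphosphate into 2 triose phosphates. Aldoa had 1664, 1344, 1160 and 2168 counts and was highest on PUCL@CNT1 in differentiation medium. Its platform ratio was -0.23 (-0.33 to -0.13) in maintenance medium and 0.86 (0.76 to 0.97) in differentiation medium. Triose phosphate isomerase makes both trioses usable. Tpi1 had 1349, 715, 638 and 1221 counts, so PUCL in maintenance medium and PUCL@CNT1 in differentiation medium were high and the other libraries were low. Its platform ratio was -0.84 (-0.97 to -0.71) and then 0.90 (0.76 to 1.04), and its medium ratio was -1.05 (-1.19 to -0.91) on PUCL and 0.68 (0.55 to 0.82) on PUCL@CNT1. Tpi1 is listed at 2 entries, with 646, 368, 302 and 608 counts at the first and 703, 347, 336 and 613 at the second. Both entries gave this pattern when taken alone. Their counts are close in every library and it is not known whether they count separate reads, so this is not independent support.

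The first 3 enzymes of the ATP-yielding part had ratios closer to 0. Gapdh, which oxidizes glyceraldehyde-3-phosphate and reduces NAD+, had 1954, 2111, 2355 and 2906 counts. It was higher in differentiation medium on both platforms, with medium ratios of 0.30 (0.21 to 0.39) on PUCL and 0.37 (0.29 to 0.45) on PUCL@CNT1, and higher on PUCL@CNT1 in both media, with platform ratios of 0.19 (0.10 to 0.28) and 0.26 (0.18 to 0.34). Phosphoglycerate kinase makes the first ATP of the pathway. Pgk1 had 3277, 2832, 3618 and 3828 counts, with medium ratios of 0.17 (0.10 to 0.24) and 0.34 (0.27 to 0.42). In differentiation medium its platform ratio was 0.04 (-0.02 to 0.11). Phosphoglycerate mutase moves the phosphate group ahead of enolase. Pgam1 had 3638, 3766, 2788 and 3647 counts and was lowest on PUCL in differentiation medium, with a medium ratio of -0.36 (-0.43 to -0.28) on PUCL and -0.14 (-0.20 to -0.07) on PUCL@CNT1.

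Pyruvate kinase makes pyruvate and ATP. Pkm had only 89, 74, 52 and 108 counts, so its intervals were wide. Its platform ratio was -0.19 (-0.65 to 0.27) in maintenance medium and 1.01 (0.52 to 1.52) in differentiation medium. The latter was 2.01-fold, and its lower bound missed the 1.5-fold limit. Lactate dehydrogenase A favours the step from pyruvate to lactate. Ldha had 1440, 1648, 1417 and 3014 counts and stood out in 1 library, PUCL@CNT1 in differentiation medium. Its platform ratio was 0.27 (0.17 to 0.38) in maintenance medium and 1.05 (0.96 to 1.14), or 2.07-fold, in differentiation medium. The medium ratio of Ldha was 0.01 (-0.10 to 0.11) on PUCL and 0.78 (0.69 to 0.87) on PUCL@CNT1.

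**Figure D2:**
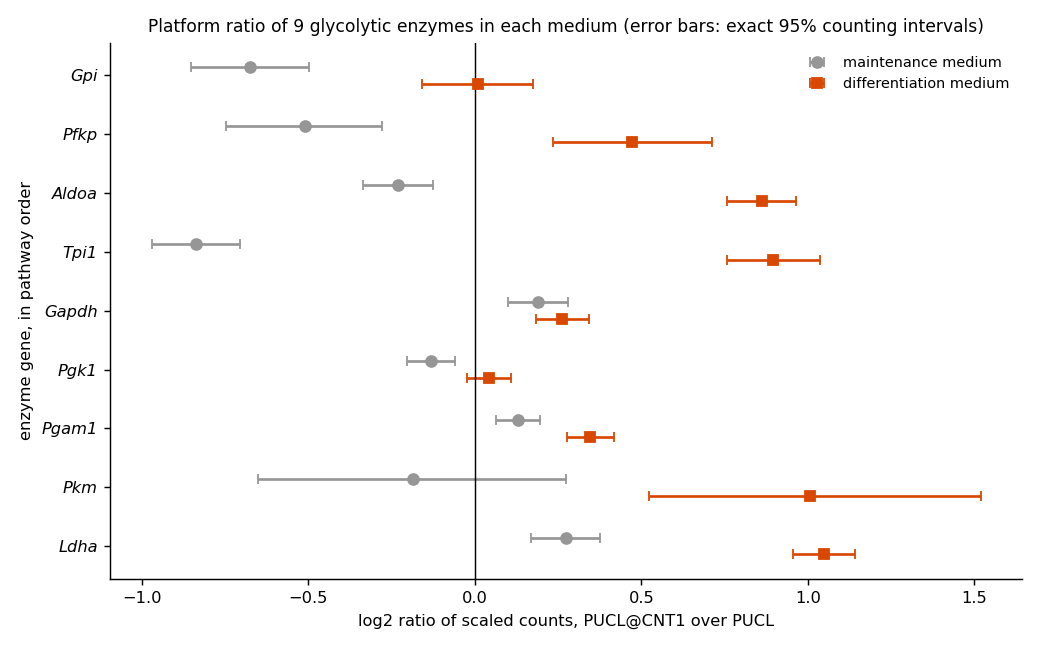
Log2 ratio of TMM-scaled counts, PUCL@CNT1 over PUCL, for 9 enzymes in pathway order (Hk2, with 0 counts in 2 libraries, is left out); points are single pairs of libraries and error bars exact 95% counting intervals. Pfkp, Aldoa and Tpi1 sit below 0 in maintenance medium and above 0 in differentiation medium, and Ldha reaches 1.05.

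Few of these ratios passed the rule of size. In the platform pair of differentiation medium 1 enzyme of 10 was called, Ldha, against 30.8% of all genes, and with totals free of ribosomal RNA entries its ratio of 0.95 missed the limit. In maintenance medium Hk2 alone was called, lower, against 26.1% of all genes. The medium pair on PUCL gave 2 calls, Hk2 and Tpi1, both lower, against 31.3%, and the medium pair on PUCL@CNT1 gave 0 against 30.9%. The calls of Hk2 follow from the filter. Many of all the genes called had low counts. Among the 3619 genes with a mean of 300 or more counts, 1 of 8 enzymes was called for platform in differentiation medium (8.18% of those genes) and 1 of 8 for medium on PUCL (9.45%). None of the 8 was called for medium on PUCL@CNT1 (11.2%) or for platform in maintenance medium (3.81%).

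How far the platform ratio moved from maintenance to differentiation medium was taken as the difference of the 2 log2 ratios. The same number is the medium ratio on PUCL@CNT1 minus that on PUCL. It was above 0 for all 10 enzymes, with a median of 0.88 (0.78 without Hk2) against 0.03 over all genes; with totals free of ribosomal RNA entries it was above 0 for 9, Gapdh being at -0.02. Tpi1 had the largest difference of the enzymes counted in all 4 libraries at 1.73 (1.54 to 1.92), followed by Pkm at 1.19 (0.54 to 1.84), Aldoa at 1.09 (0.95 to 1.24) and Pfkp at 0.98 (0.66 to 1.31). Ldha differed by 0.78 (0.64 to 0.91) and Gpi by 0.68 (0.44 to 0.92). For Pgam1, Pgk1 and Gapdh it was smaller, at 0.22 (0.12 to 0.32), 0.17 (0.08 to 0.27) and 0.07 (-0.05 to 0.19). Of the 10 intervals, 9 lay above 0, against 32.9% of all genes, and 3 enzymes (Hk2, Aldoa and Tpi1) were called by size, against 29.5%. Hk2 passed the filter only through the PUCL maintenance library, so its difference and its call follow largely from the filter. Without Hk2, 8 of 9 intervals lay above 0 and 2 of 9 enzymes were called. The size for Hk2 depends on what stands in for its counts of 0, and with totals free of ribosomal RNA entries Aldoa came to 0.999, just under the 2-fold limit. Among genes with a mean of 300 or more counts, 2 of 8 enzymes were called, against 11.9%. Of the same 8, 7 had an interval above 0, against 40.2% of those genes, and the median was 0.73 against 0.06. For 5 of 10 enzymes (Gpi, Pfkp, Aldoa, Tpi1 and Pkm) the medium intervals lay below 0 on PUCL and above 0 on PUCL@CNT1, a pattern held by 1056 of the 10516 genes. Intervals on opposite sides in either direction were found in 18.7% of all genes. No test of the difference could be made, since a fit with an interaction leaves no residual degree of freedom.

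**Figure D3:**
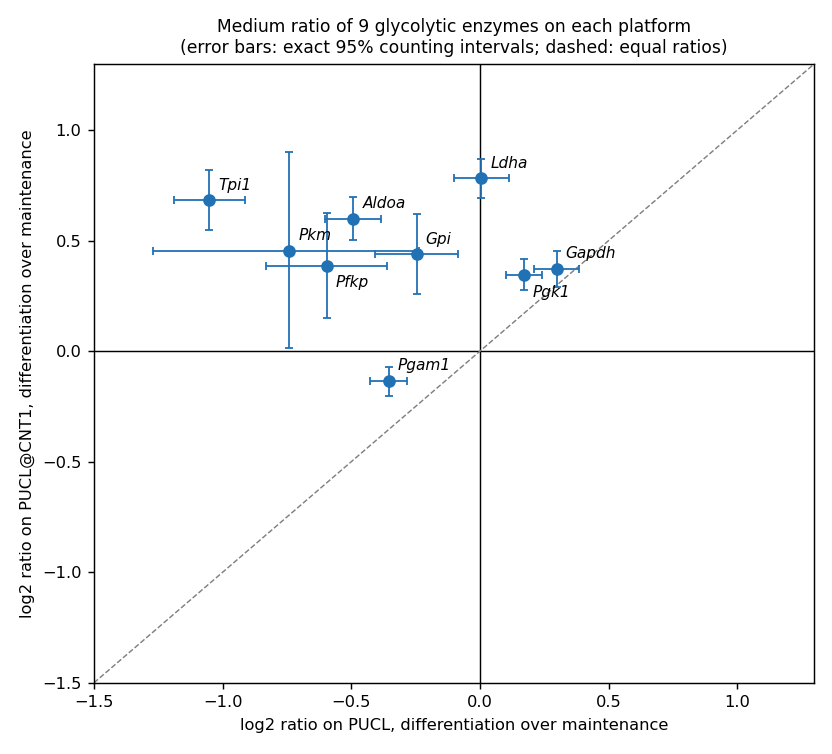
Log2 ratio of TMM-scaled counts, differentiation over maintenance medium, on PUCL (x axis) and on PUCL@CNT1 (y axis) for 9 enzymes; bars on both axes are exact 95% counting intervals. Tpi1, Aldoa, Pfkp, Gpi and Pkm lie at values below 0 on PUCL and above 0 on PUCL@CNT1, while Gapdh and Pgk1 are above 0 and Pgam1 is below 0 on both.

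An edgeR quasi-likelihood F test with platform and medium as additive terms takes both platforms as repeats of a single change with medium, so opposite ratios enter as spread. With Benjamini-Hochberg adjustment over all genes, 0 of 10 enzymes passed the threshold of 0.05 for medium, where 2.81% of all genes did. None had an unadjusted p under 0.05 in edgeR, where 12.1% of all genes did. DESeq2 called 0 of the enzymes and 170 of the 10516 genes. In limma-voom 0 enzymes were called, against 294 of all genes. There 1 enzyme (Ldha) was under 0.05 before adjustment, against 1282 of all genes. The fitted log2 changes with medium ran from -0.25 (SE 0.192, adjusted p = 0.774) for Pgam1 to 0.39 (SE 0.231, adjusted p = 0.553) for Ldha among the 9 enzymes other than Hk2. For platform 0 of 10 passed, where 0.456% of all genes did. There 1 of 10, Ldha, had an unadjusted p under 0.05, as did 6.95% of all genes, with a fitted log2 difference of 0.66 (SE 0.231, adjusted p = 0.284 in edgeR, 0.159 in DESeq2 and 0.0917 in limma-voom). Both platform pairs of Ldha were above 0. With 1 library and the medium term left out, its difference was 0.28 without PUCL@CNT1 in differentiation medium and 1.05 without PUCL@CNT1 in maintenance medium.

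Summed counts of the 10 enzymes made 0.224% (0.220% to 0.227%) of the PUCL library and 0.218% (0.214% to 0.222%) of the PUCL@CNT1 library in maintenance medium. In differentiation medium they made 0.195% (0.192% to 0.199%) on PUCL and 0.260% (0.257% to 0.264%) on PUCL@CNT1, with exact binomial intervals. After scaling, the sum on PUCL@CNT1 was 0.956 times that on PUCL in maintenance medium and 1.35 times in differentiation medium. These are bulk libraries, in which fewer cells of a type and less RNA per cell cannot be told apart.

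A share of 2 isoforms within a library does not depend on how libraries are scaled. Ldha made 49.1%, 58.2%, 42.3% and 72.9% of the counts of Ldha and Ldhb, whose product favours the step from lactate to pyruvate. Ldhb itself had 1493, 1184, 1932 and 1118 counts, so Ldha and Ldhb differed in opposite directions in differentiation medium, where the platform ratio of Ldhb was -0.83 (-0.94 to -0.72). Aldoa made 82.7%, 85.6%, 71.0% and 93.6% of the counts of Aldoa and Aldoc, the brain form of aldolase. Aldoc had 349, 226, 473 and 148 counts, with a platform ratio of -1.71 (-1.99 to -1.45) in differentiation medium. For both enzymes the share of the A form was lowest on PUCL and highest on PUCL@CNT1 in differentiation medium. Enolase ran otherwise: Eno1 made 53.3%, 63.6%, 82.2% and 68.2% of the counts of Eno1 and Eno2, with the highest share on PUCL in differentiation medium. In the edgeR fit neither Ldhb nor Aldoc passed the threshold for platform (adjusted p = 0.609 for Ldhb and 0.471 for Aldoc).

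**Figure D4:**
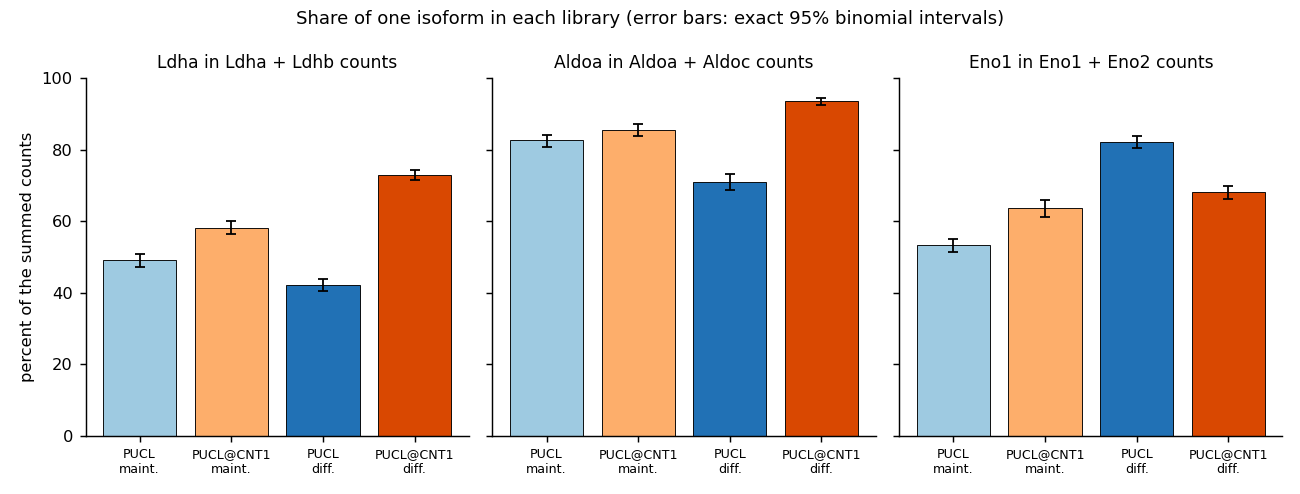
Share of counts, in percent, taken by Ldha of Ldha and Ldhb, by Aldoa of Aldoa and Aldoc, and by Eno1 of Eno1 and Eno2, in the 4 libraries; error bars are exact 95% binomial intervals. The Ldha share spans 42.3% to 72.9% and the Aldoa share 71.0% to 93.6%, with both extremes in the differentiation libraries, while the Eno1 share spans 53.3% to 82.2% and is highest on PUCL in differentiation medium.

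Enolase, the step between phosphoglycerate mutase and pyruvate kinase, completes the pathway. Eno1, the general form, had 1530, 1052, 1736 and 1670 counts. Eno2, the form of mature neurons, had 1339, 601, 375 and 780, a shape close to that of Tpi1, with platform ratios of -1.08 (-1.22 to -0.94) and 1.02 (0.84 to 1.20). Like Tpi1, Eno2 is listed at 2 entries that lie far apart, and each Eno2 entry lies close to a Tpi1 entry. Eno3, the muscle form, had 113, 16, 87 and 237 counts. Of the minor isoforms, Pfkl had 151, 167, 195 and 248 counts, Pfkm 288, 164, 296 and 385, Pgam2 53, 0, 36 and 86, and Pklr 30, 18, 15 and 9. Hk3, Pgk2, Ldhc and Gapdhs were at 0 in every library.

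Around the enzymes, 10 lists of connected genes held 102 genes, of which 100 were in the files and 83 were tested. In the edgeR fit 1 rose and 1 fell with medium, where 2.81% of all genes passed. An unadjusted p under 0.05 was found for 17 of the 83 (12.1% of all genes). DESeq2 called 1 of the 83 and 170 of all 10516 genes, and limma-voom called 1 and 294. Pc, pyruvate carboxylase, which feeds pyruvate into gluconeogenesis and the citrate cycle, rose from 0 and 0 counts to 156 and 60 (adjusted p = 0.0123). The lower ends of its counting intervals were log2 5.41 on PUCL and 3.89 on PUCL@CNT1. Pc passed the filter only through the differentiation libraries, so its direction was set by the filter. Tkt, transketolase of the pentose phosphate pathway, fell from 3573 and 4280 to 2383 and 2497 counts, a fitted log2 change of -0.71 (SE 0.197, adjusted p = 0.0238). Of the alternatives that gave a value, 7 of 11 kept Pc past the threshold and 5 of 12 kept Tkt, with adjusted p from 0.00169 to 0.331 and from 0.00443 to 0.977. No listed gene passed the threshold for platform, where 0.456% of all genes did, while 8 of the 83 had an unadjusted p under 0.05 (6.95% of all genes). DESeq2 and limma-voom called 0 of the 83, against 36 and 87 of all 10516 genes.

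Of the transporters and flux regulators, 4 genes were called by size in the same direction in both medium pairs, and none of them passed the adjusted threshold. In a single medium pair, 31.3% of all genes were called on PUCL and 30.9% on PUCL@CNT1. The share of all genes called in both pairs was not counted, so the 4 have no background to be read against. Slc2a1, a glucose transporter of most dividing cells, had 219, 171, 49 and 20 counts, with medium ratios of -2.12 (-2.61 to -1.68) on PUCL and -3.15 (-3.93 to -2.51) on PUCL@CNT1 (fitted adjusted p = 0.0616). Slc2a4, the insulin-responsive transporter, had 0, 0, 20 and 12 counts. It passed the filter only through the differentiation libraries, so its direction was set by the filter. Txnip, which curbs glucose uptake, had 97, 35, 203 and 263 counts, with medium ratios of 1.09 (0.74 to 1.46) and 2.80 (2.31 to 3.37) (adjusted p = 0.133). Tigar, which lowers fructose-2,6-bisphosphate, had 166, 175, 78 and 70 counts and medium ratios of -1.06 and -1.41 (adjusted p = 0.584). Slc2a1 was thus lower in differentiation medium on both platforms, unlike Ldha, Aldoa and Tpi1, whose medium ratios on PUCL@CNT1 were above 0.

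At the exit to mitochondria, Pdk2, a kinase that turns off pyruvate dehydrogenase, had 95, 9, 223 and 51 counts and was called by size in all 4 pairs, higher in differentiation medium and lower on PUCL@CNT1. Gpd1, which draws triose phosphate into glycerol-3-phosphate, had 25, 0, 82 and 32 counts with the same directions. Pdp1, the phosphatase that turns pyruvate dehydrogenase on, had 28, 70, 3 and 147 counts, and Pdhx, a subunit of that complex, 7, 30, 0 and 55. Both were called higher on PUCL@CNT1 in both media. Mycn, a MYC family factor, had 30, 8, 22 and 0 counts and was called lower on PUCL@CNT1 in both. Pdhx passed the filter only through the PUCL@CNT1 libraries and Mycn only through the PUCL libraries, so their directions were set by the filter. None of Pdk2, Gpd1, Pdp1, Pdhx and Mycn passed the adjusted threshold, and their counts are low. In a single platform pair, 26.1% of all genes were called in maintenance medium and 30.8% in differentiation medium. The share called in both platform pairs was not counted.

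By list, the median fitted log2 change with medium was 0.25 for other enzymes and isoforms of glycolysis (12 tested), 0.80 for regulators of flux (6), 0.06 for glucose and lactate transporters (7) and -0.58 for pyruvate entry into mitochondria (13). It was 4.61 for gluconeogenesis (4), -0.05 for the pentose phosphate pathway (8) and near 0 for glycogen and galactose (13). The serine branch had 0.36 (5), NADH shuttles and the glycerol branch -0.18 (7), and HIF and MYC regulators -0.37 (8), against 0.003 over all genes. For the 10 enzymes it was -0.02. The medians of the gluconeogenesis, flux regulator and transporter lists rest on genes with counts of 0 in some libraries (such as Pck1, Pfkfb1 and Slc16a3), whose fitted values depend on how 0 is handled.

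Markers of other cell types moved between the libraries too. The summed level of 8 neuronal markers was 344, 246, 163 and 156 CPM (Syp at 0). Most of it was Gap43, with 1375, 815, 496 and 679 counts, and Map2, with 552, 614, 407 and 238. Snap25 and Stmn2 were also lower in differentiation medium on both platforms. Rbfox3, with 29, 1, 0 and 0 counts, was lower on PUCL, while 1 count against 0 set no direction on PUCL@CNT1. Dcx, with 48, 39, 79 and 61 counts, was higher there on both, and Tubb3, with 28, 20, 25 and 62, was higher on PUCL@CNT1. The summed level of 7 astrocyte markers was 489, 512, 1005 and 609 CPM (Slc1a2 at 0). The high astrocyte sum was S100b, with 683, 534, 3939 and 761 counts, and the rest summed to 386, 427, 396 and 494 CPM. The NSPC markers summed to 6373, 6712, 8223 and 10359 CPM, highest in the library in which Ldha and Aldoa were highest. Most of that sum was Vim, with 28449, 29953, 31121 and 50754 counts, and without it the sums were 2063, 1922, 3415 and 2733 CPM. Sox2 had 4219, 3989, 6301 and 3879 counts and Pax6 53, 21, 246 and 19, both lowest in that library. The 8 oligodendrocyte lineage markers summed to 918, 829, 1530 and 1536 CPM. The 6 markers of dividing cells summed to 1579, 1518, 1450 and 1067 CPM, lowest in the same library. The 6 endothelial markers summed to 14.4, 17.6, 2.78 and 29.5 CPM, with Pecam1, Cdh5 and Tek at 0. The 7 mural and fibroblast markers summed to 1063, 746, 499 and 366 CPM, nearly all of it Acta2, with Rgs5, Dcn and Lum at 0. The part of these markers, or of the ribosomal share, in the enzyme ratios was not tested.

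Likeness to the enzymes was measured as the Euclidean distance to their mean profile, in log2 scaled CPM centred on each gene's own mean over the 4 libraries. That profile was 0.32, -0.25, -0.35 and 0.27. Among 3611 other genes with a mean of 300 or more counts, Ppp1r12a was closest at 0.0405, followed by Wdfy3 at 0.0556, Mrpl21 at 0.0711, Yif1a at 0.0956 and RGD1311745 at 0.106. Without Hk2 the profile was 0.08, -0.14, -0.25 and 0.30. The closest genes then were Sdcbp, Ube2l3, Whsc1, Myadm and Rab1a, and 0 of the 5 were shared, so the first list rests on Hk2.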

How the data were processed

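Gene expression was measured in 4 libraries of rat NSPCs, with QuantSeq (Lexogen), a kit that sequences near the 3′ end of mRNA, from 500 ng of Trizol-extracted total RNA each, per the labels' protocols. The authors deposited 1 whole-number count per gene entry and library, not normalized. The submitters' processing notes name Bowtie2, bedtools and the build rn6; versions, annotation, strand setting and filters are not given in the sources used here, so antisense and overlapping genes cannot be told apart.

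Files held 17048 entries for 16881 symbols, and entries of 1 symbol were summed. A minimum of 10 counts in any 1 library left 10516 genes. TMM scaling and the quasi-likelihood F test were run in edgeR 4.0.16 (R 4.3.3) over the 4 libraries, with additive terms for platform and medium. That fit has 1 residual degree of freedom and 87.2 prior degrees of freedom shared across genes, so a gene's p-value draws mainly on spread seen in other genes. Any p-value measures only the spread between these libraries, which may be technical. Adjusted p-values are Benjamini-Hochberg values over all genes tested. Each SE given for an edgeR value was derived, as the size of the log2 change over the square root of its F value. DESeq2 1.42.0 and limma 3.58.1 (voom) were alternatives. Ratios of single pairs of libraries had 0.5 added to each count, with exact 95% (Clopper-Pearson) intervals; the interval of the difference of 2 ratios was a normal one on the log scale. For bounds, 3 counts per library stood in for a count of 0; they take the other count without error. Scripts were tested on simulated data.

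All 10 enzymes are named. From the 10 lists of connected genes, those past the adjusted threshold, those called by size in the same direction in both pairs of a contrast, and the other isoforms and enolase are named, with the 5 genes of most like profile. The enzymes, lists and rules were chosen with earlier results of these data known. Values without Hk2, with zeros set at 3 counts and for each Tpi1 entry alone, and marker sums without Vim or S100b, were added after seeing the data. Promoter windows are from RefSeq (GRCr8) and were used for sequence only, since the counts are on rn6.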

Additional observations from a re-analysis of the deposited data

Results flagged for a closer look

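Of the 10 enzymes and 12 tested isoforms and other enzymes of glycolysis, 22 in all, 5 enzymes and 3 others had medium ratios of opposite sign on the 2 platforms with both counting intervals off 0. Of all genes tested 18.7% did so, 1968 of 10516, and among genes with a mean of 300 or more counts 4 of 8 enzymes and 18.7% of 3619 genes did. The medium log2 ratio on PUCL@CNT1 minus that on PUCL was 0.68 for Gpi, 0.98 for Pfkp, 1.09 for Aldoa, 1.73 for Tpi1 and 1.19 for Pkm, all lower after the switch on PUCL and higher on PUCL@CNT1. It was 2.09 for Eno2, in the same directions. For the partner isoforms Aldoc and Ldhb the directions were opposite, with differences of -1.17 and -0.57. Each rests on 1 library per combination, and the difference was not tested.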

How the results depend on the processing

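No paired analysis was possible because each combination of platform and medium was 1 library and the labels carry no replicate numbers. In no alternative that gave an adjusted p did any of the 10 enzymes pass the threshold for medium or platform. The cause of the shifts below was not tested. Of all genes, 296 passed for medium (63.9% of them higher), against 28 among genes with a mean of 300 or more counts, 170 with DESeq2 and 176 with the platform term left out; scaling by total counts gave 53.5% higher. Leaving out each library in turn, with the other term also left out and the lone library taken to vary like the rest, gave 25 to 263 (25 without PUCL@CNT1 and 35 without PUCL in maintenance medium). For platform, 48 passed (45.8% higher), against 18 with RLE size factors (33.3% higher), 27 with total counts, 25 with no filter, 87 with limma-voom (57.5% higher), 36 with DESeq2 (61.1% higher), 0 with a mean of 300 or more counts (343 at an unadjusted p under 0.05) and 0 with the medium term left out (388). Leaving out each library gave 0 to 27 (0 without PUCL in differentiation medium, 356 at an unadjusted p under 0.05). Calls by size among genes with a mean of 300 or more counts were 342 for medium on PUCL, 407 for medium on PUCL@CNT1, 138 and 296 for platform in maintenance and differentiation medium and 431 for their difference.

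The summed enzyme share was 0.252%, 0.240%, 0.226% and 0.285% without ribosomal RNA entries and 0.168%, 0.156%, 0.153% and 0.207% without Pgam1, in the order of libraries used above. No single enzyme's fitted change was past a threshold, and several changed sign: Aldoa for medium was -0.015 with total counts, and Tpi1 for platform was -0.0032 with a mean of 300 or more counts, -0.0053 with limma-voom and -0.024 with the medium term left out. With each library left out in turn, the medium change ran from -0.24 to 0.43 for Gpi, -0.37 to 0.17 for Pfkp, -0.39 to 0.48 for Aldoa, -0.70 to 0.30 for Tpi1, -0.66 to 0.36 for Pkm and -0.14 to 0.91 for Ldha, and the platform difference from -0.30 to 0.29 for Pfkp, -0.45 to 0.60 for Tpi1 and -0.21 to 0.12 for Pgk1. For Ldha it ran from 0.28 to 1.05. Hk2 had at most 41 counts and Pkm 52 to 108 per library, so small changes of either could not be detected. Without replicates, small changes of the other enzymes could be missed too. Even Pgam1, the enzyme with the most counts, had an SE of 0.192 for medium, as derived from the edgeR F test.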

Other observations

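Of the 12 other enzymes and isoforms tested, 1 was called higher and 3 lower by size for medium on PUCL, against 31.3% of all genes. On PUCL@CNT1, 3 were called higher (Pfkm, Pgam2 and Eno3), against 30.9%. Bpgm, Adpgk and Hk1, like Eno2, were called on PUCL and not on PUCL@CNT1. Bpgm, which makes 2,3-bisphosphoglycerate and belongs to the phosphoglycerate mutase family, had 141, 134, 458 and 265 counts in the order of libraries used above, with medium log2 ratios of 1.72 (1.45 to 2.01) on PUCL and 0.89 (0.59 to 1.20) on PUCL@CNT1. Adpgk, which phosphorylates glucose with ADP, had 1003, 809, 358 and 595 counts, with medium ratios of -1.46 (-1.64 to -1.28) and -0.53 (-0.69 to -0.38). In the edgeR fit neither passed the threshold after Benjamini-Hochberg adjustment (adjusted p = 0.166 for Bpgm and 0.0738 for Adpgk). Hk1, the constitutive hexokinase, had a medium ratio of -1.05 (-1.14 to -0.95) on PUCL and -0.20 (-0.30 to -0.10) on PUCL@CNT1 (adjusted p = 0.166).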
